A study of Mus musculus with 5 samples.

Results

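The genes described here control whether blood clots at the vessel wall and whether a clot is dissolved: F3, Thbd, Plat, Plau, Plaur, Procr and Tfpi. They were chosen by name, as every probe set whose single gene symbol in the platform annotation was one of the 7. This gave 12 of 45101 probe sets and 7 of 18194 named genes. Expression had been measured on 5 one-colour arrays of cultured cells of the C57BL/6J mouse background, labelled as aortic endothelial cells, of which 2 were titled TNF-LTBR and 3 control. All 5 titles give 24 h. Per the labels, the cells were kept in serum-rich medium with heparin and endothelial growth supplement, so both groups share these additions. The labels name neither the agonists nor the doses of the TNF-LTBR group, and their treatment text mentions PBS alone for every sample. Whether arrays of a group stand for separate cultures is not stated either, and the p-values therefore cover the spread of these arrays, which may be technical.

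Clotting begins when tissue factor, the product of F3, meets factor VII of the blood and starts the protease cascade that ends in thrombin and fibrin. The vessel lining holds this back with Tfpi, which blocks tissue factor and factor Xa, and with thrombomodulin (Thbd) and the endothelial protein C receptor (Procr), which turn thrombin towards activating protein C. Clots are dissolved by plasmin, which is made from plasminogen by the activators tPA (Plat) and uPA (Plau), the second of them held at the cell surface by its receptor (Plaur). Inflammatory cytokines such as TNF are known to raise tissue factor and to lower thrombomodulin in cultured human endothelial cells, which is the background against which the comparison of TNF-LTBR with control can be read.

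Promoter sequence bears on F3 because its upstream DNA in human holds known AP-1 sites and a known kappaB-like site, the kinds of element through which cytokines act. The RefSeq promoter table of GRCm38.p6 held 4 of the 7 genes (F3, Plaur, Procr and Tfpi), and the 250 bases before each start were searched on both strands. F3, Tfpi and Plaur are shown because F3 and Tfpi were high on the same arrays and Plaur shares the AP-1 and GC motifs with F3. Capitals mark the AP-1 heptamer TGANTCA, the letters AGTTTCC that end the kappaB-like site of the human F3 promoter, and the GC box GGGCGG. The F3 stretch is chr3:121723287-121723536 (plus strand), that of Plaur chr7:24462233-24462482 (plus strand), and that of Tfpi, at the first of 2 listed starts, chr2:84476760-84477009 (minus strand).
F3: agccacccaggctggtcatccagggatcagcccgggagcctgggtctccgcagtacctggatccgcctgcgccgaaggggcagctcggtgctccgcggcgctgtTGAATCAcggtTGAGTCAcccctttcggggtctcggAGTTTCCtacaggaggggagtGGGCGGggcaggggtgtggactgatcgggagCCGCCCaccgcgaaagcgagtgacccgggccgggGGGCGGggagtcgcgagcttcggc
Plaur: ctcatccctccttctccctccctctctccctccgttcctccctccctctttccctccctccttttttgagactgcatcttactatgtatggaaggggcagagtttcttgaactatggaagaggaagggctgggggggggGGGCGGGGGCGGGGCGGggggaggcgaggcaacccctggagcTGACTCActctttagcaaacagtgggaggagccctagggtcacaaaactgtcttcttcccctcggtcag
Tfpi: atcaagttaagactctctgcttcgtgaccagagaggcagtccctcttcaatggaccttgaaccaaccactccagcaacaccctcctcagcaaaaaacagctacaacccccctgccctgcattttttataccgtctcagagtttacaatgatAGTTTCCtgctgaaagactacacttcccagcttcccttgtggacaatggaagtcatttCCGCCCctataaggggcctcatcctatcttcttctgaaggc

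The F3 stretch held 2 AP-1 heptamers, whose first bases lie 146 and 135 bases before the start, the letters AGTTTCC at 110 bases and 3 GC boxes. Among 32851 promoter entries of the same length, 6.75% held an AP-1 heptamer, 4.78% held AGTTTCC and 32.7% held a GC box. Plaur held 1 AP-1 heptamer at 69 bases and 3 GC boxes that adjoin or overlap each other. Procr, whose sequence is not printed, held 1 AP-1 heptamer at 154 bases and AGTTTCC at 211 bases. The first Tfpi start had AGTTTCC at 99 bases, neither Tfpi start had an AP-1 heptamer, and each had 1 GC box. A TATA box, TATAAA, was also searched and is not in capitals: it was in the Tfpi stretch on the opposite strand, and in 12.4% of all entries. None of the motifs overlapped a different one. These are matches of letters only.

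The arrays differed from each other in ways that crossed the titles. Over the 10916 genes tested, TNF-LTBR array 1 was most like control array 2 (Pearson r across genes 0.976) and TNF-LTBR array 2 was most like control array 3 (0.978), whereas the TNF-LTBR arrays had an r of 0.901 with each other. Median intensity lay between 109.9 and 120.7 on the 5 arrays. As a check of the titles, Nfkb2, the precursor subunit of non-canonical NF-kB, was at 1155 and 1202 intensity units on TNF-LTBR arrays 1 and 2, against 417.7, 321.6 and 251.5 on control arrays 1 to 3, with no overlap of the groups (limma, adjusted p 0.999). Some defining endothelial markers were dim. Vwf was at 2.3 to 7.2 units and Pecam1 at 52.6 to 198.9 on the 5 arrays, and 10 of 17 endothelial markers were below the brightness filter. The other 7 passed it, among them Eng at 1550.2 to 1858.3 units and Plvap at 401.3 to 759.3. Of the fibroblast and pericyte markers 10 of 10 passed. Of the smooth muscle markers 6 of 10 passed, which is the 60% that the filter kept of all genes. The smooth muscle marker Myh11 was also dim, at 4.6 to 41.3 units, whereas Acta2 was at 2066.4 to 8169.4 and Smtn at 967.7 to 2969.4. Tagln ranged from 19.4 to 3307.9 units. The cultures are called here by their label only.

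F3, Plat and Tfpi varied by several fold within each group, and none of the 7 genes differed between TNF-LTBR and control beyond the spread of the arrays. In limma, 0 of the 6 genes bright enough to be tested passed a Benjamini-Hochberg adjusted p of 0.05 in either direction, against 0% of the 10916 genes tested in each direction. At an unadjusted p under 0.05 the count was again 0 of 6, against 1.76% of all genes tested (192 genes). For 0 of the 6 genes were both TNF-LTBR arrays above every control, against 6.94% of all genes, and for 0 were both below every control, against 6.34%. The median difference was -0.02 over the 6 genes and 0.00 over all genes tested, on the scale of log2(intensity + 16), which is used for every difference and SD below and understates changes of dim genes. The median within-group SD was 0.76 over the 6 genes and 0.23 over all genes tested, which describes these arrays and was not tested.

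**Figure D1:**
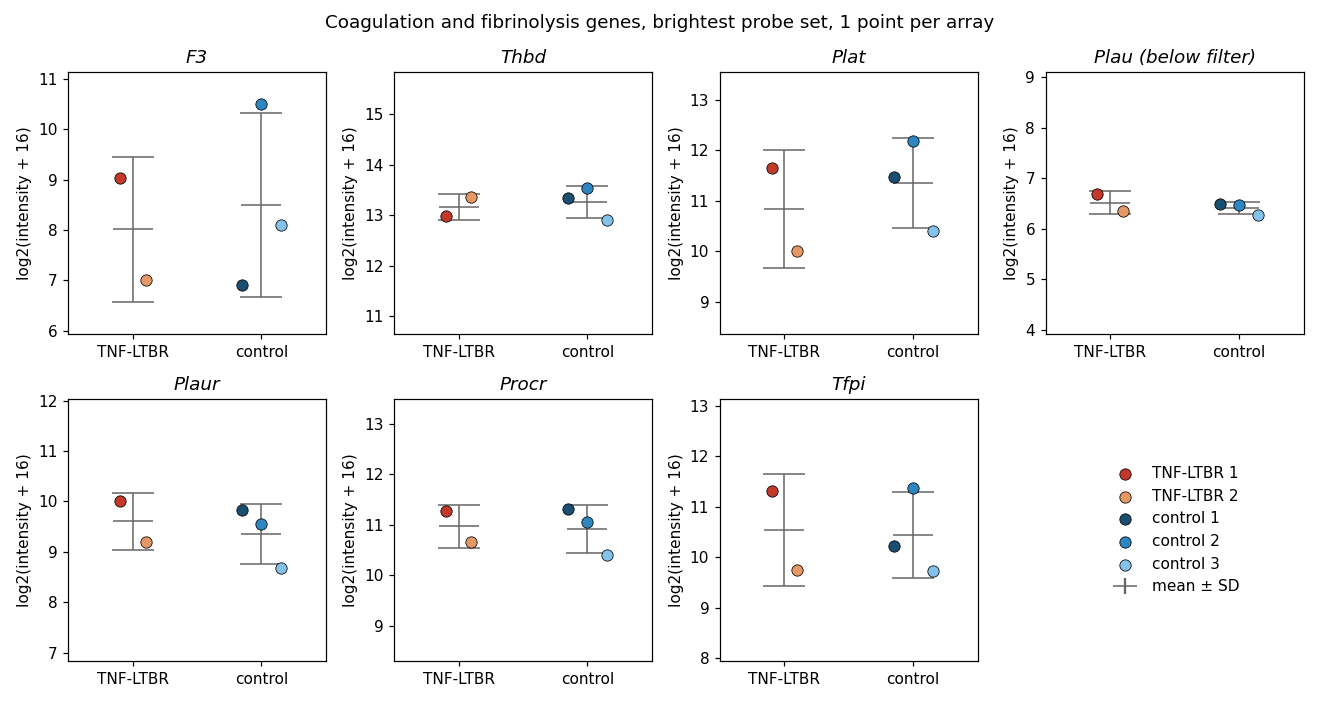
Level of each gene on its brightest probe set, as log2(intensity + 16), with TNF-LTBR (2 arrays) on the left and control (3 arrays) on the right of each panel; every panel spans the same number of log2 units, points are arrays, and bars give mean ± SD. The groups overlap in all 7 panels, and F3, Plat and Tfpi spread most.

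F3, the initiator of clotting, had 504.4 and 112 intensity units on TNF-LTBR arrays 1 and 2, against 104.5, 1423 and 256.5 units on control arrays 1 to 3. The highest and the lowest value were both controls, 13.6-fold apart, and the TNF-LTBR arrays lay between them. On the log2 scale F3 was 8.01 ± 1.43 in TNF-LTBR (SD, n = 2) and 8.50 ± 1.82 in control (SD, n = 3). The difference was -0.49 with a 95% confidence interval of -3.49 to 2.51 (limma, adjusted p 0.999). This interval holds changes of several fold in either direction. Within-group SD was larger than that of F3 for only 1.03% of the genes tested. Single arrays set its sign: it was 0.51 when control replicate 2 was left out, 0.53 when TNF-LTBR replicate 2 was left out, and -1.50 when TNF-LTBR replicate 1 was left out.

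Tfpi, the inhibitor of the tissue factor pathway, was measured by 4 probe sets. The brightest gave 2534 and 844.5 units on TNF-LTBR arrays 1 and 2, against 1171, 2640 and 834.4 units on control arrays 1 to 3. TNF-LTBR array 1 and control array 2 were high, the other 3 arrays were lower, and the groups overlapped. The difference was 0.09, with an interval of -1.58 to 1.76 (limma, adjusted p 0.999). The other 3 probe sets differed by 0.03, -0.08 and 0.22. All 4 had control array 2 and TNF-LTBR array 1 as their highest arrays, as the plot by probe set shows, so the spread of Tfpi was seen by different probe sets of the same gene. The difference was -0.69 when TNF-LTBR replicate 1 was left out, and 0.88 when TNF-LTBR replicate 2 was. Its sign also turned when control replicate 1 (-0.02) or control replicate 3 (-0.26) was left out.

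**Figure D2:**
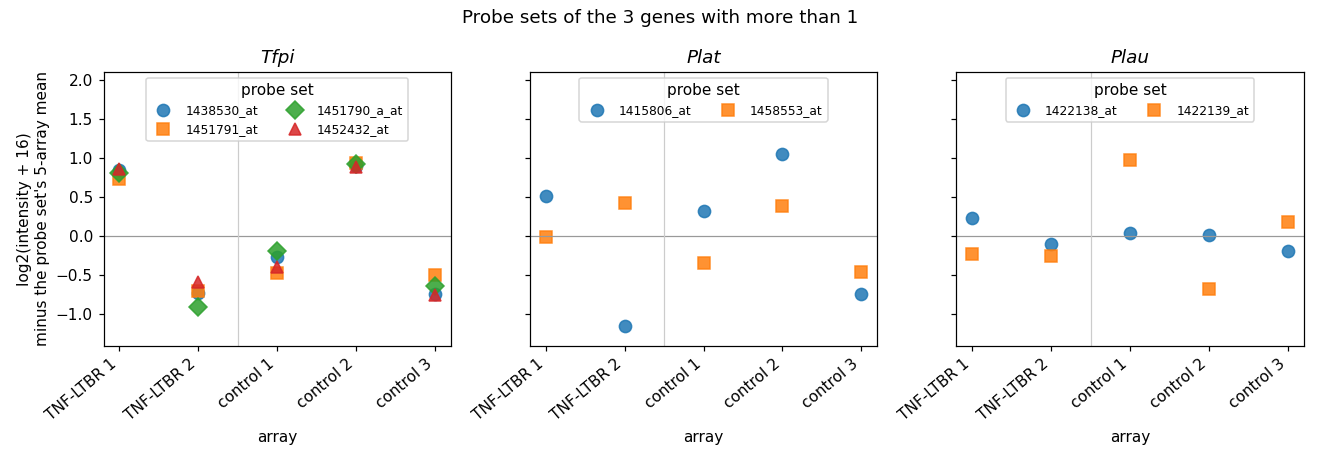
Values of each probe set of Tfpi, Plat and Plau on the 5 arrays, as log2(intensity + 16) minus that probe set's own mean, with the TNF-LTBR arrays left of the controls. The 4 Tfpi probe sets follow each other, whereas the dimmer probe sets of Plat and Plau do not follow the brighter ones.

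Of the protein C arm, Thbd and Procr were measured. Thbd, the thrombin-binding cofactor of protein C activation, had 8072 and 10430.1 units on TNF-LTBR arrays 1 and 2, against 10329.4, 11821.6 and 7698 units on control arrays 1 to 3. Its groups overlapped, and its values spanned 1.29-fold within TNF-LTBR and 1.54-fold within control. The difference was -0.09, with an interval of -0.66 to 0.47 (limma, adjusted p 0.999), the narrowest interval of the 7 genes. Its sign turned when control replicate 2 (0.04) or TNF-LTBR replicate 1 (0.09) was left out.

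Procr, the receptor that presents protein C to the thrombin-thrombomodulin complex, had 2449 and 1611 units on TNF-LTBR arrays 1 and 2, against 2528, 2100 and 1329 units on control arrays 1 to 3. Control array 1 was highest, control array 3 was lowest, and the groups overlapped. The difference was 0.05, with an interval of -0.80 to 0.90 (limma, adjusted p 0.999). Its 1 probe set ends in _s_at, a suffix given to sequence shared with other transcripts, and no other probe set was at hand to set beside it. The sign of its difference turned without control replicate 3 (-0.21), and likewise in the absence of TNF-LTBR replicate 1 (-0.25).

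Among the plasminogen activators, Plat (tPA) had 3216 and 1009 units on TNF-LTBR arrays 1 and 2, against 2826, 4662 and 1343 units on control arrays 1 to 3. TNF-LTBR array 2 was lowest, control array 2 was highest, and the groups overlapped. Plat was 10.83 ± 1.17 in TNF-LTBR (SD, n = 2) and 11.36 ± 0.90 in control (SD, n = 3) on the log2 scale. The difference was -0.53, with an interval of -2.29 to 1.24 (limma, adjusted p 0.999). Leaving out TNF-LTBR replicate 2 turned it to 0.30, while it was -0.11 when control replicate 2 was left out and -1.36 when TNF-LTBR replicate 1 was. The other Plat probe set was dim, at 76.1 and 107.8 units on TNF-LTBR arrays 1 and 2, against 57.1, 105 and 51.1 units on control arrays 1 to 3. Its difference of 0.35 had the opposite sign.

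Plau (uPA) was the 1 gene below the brightness filter, which kept the 60% of genes with the highest mean. Its brighter probe set had 86.8 and 65.9 units on TNF-LTBR arrays 1 and 2, against 74.4, 72.6 and 61.2 units on control arrays 1 to 3. These values are below the median intensity of every array, and the groups overlapped. In the fit with no filter the difference was 0.11, with an interval of -0.57 to 0.78 (limma, adjusted p 1.000). The dimmer probe set, at 22.8 and 22.3 units in TNF-LTBR and 73.8, 12.6 and 35.9 units in control, differed by -0.41. The signs of the 2 probe sets disagreed.

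Plaur, the uPA receptor, had 1010.5 and 573.1 units on TNF-LTBR arrays 1 and 2, against 896.1, 730.6 and 396.6 units on control arrays 1 to 3. TNF-LTBR array 1 was highest, control array 3 was lowest, and the groups overlapped. The difference was 0.25, with an interval of -0.83 to 1.32 (limma, adjusted p 0.999). Its sign turned when control replicate 3 (-0.09) or TNF-LTBR replicate 1 (-0.15) was left out, and it was 0.65 when TNF-LTBR replicate 2 was.

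**Figure D3:**
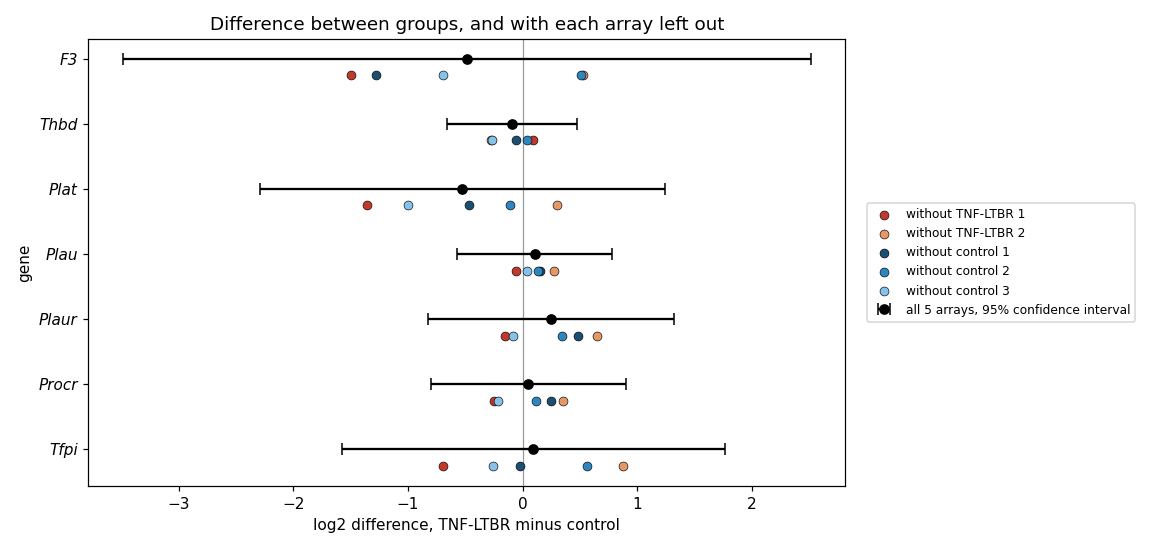
Difference of each gene, TNF-LTBR minus control, in units of log2(intensity + 16): black points with 95% confidence intervals use all 5 arrays (Plau from the fit with no filter), and coloured points leave out 1 array each. Every interval spans 0, from -3.49 to 2.51 for F3 and from -0.66 to 0.47 for Thbd.

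Of the 7 genes only Plaur and Plau had the same full order of the arrays, and no gene's order followed the titles. F3, Plat and Tfpi were highest on control array 2, with TNF-LTBR array 1 second. The other 3 arrays lay below, in an order that differed between these genes. Of all genes tested, 20.6% had these 2 arrays above the other 3, so 3 of 6 is given as a count and not as a property of the pathway. The order shared by Plaur and Plau had TNF-LTBR array 1 highest and control array 3 lowest. Procr differed from it only in that control array 1 lay above TNF-LTBR array 1. Thbd had control array 2 highest and TNF-LTBR array 2 second.

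Some marker sums were highest on the same arrays as F3, Plat and Tfpi. The macrophage and leukocyte sum and the megakaryocyte and platelet sum had TNF-LTBR array 1 highest and control array 2 second. The endothelial, smooth muscle, and fibroblast and pericyte sums had other orders. The summed intensity of 10 macrophage and leukocyte markers was 9468 and 3159 on TNF-LTBR arrays 1 and 2, against 4361, 8518 and 2811 on control arrays 1 to 3. Lyz2, a lysozyme of macrophages, was at 3934 and 66.5 units in TNF-LTBR and at 1089, 3409 and 186.3 units in control, and Ptprc, the common leukocyte antigen, at 12.3 to 75.2 units in all. Of these 10 markers 7 passed the brightness filter, and 0 were at 0. Not all of them had the order of their sum, since Adgre1 was at 408.6 units on control array 1 and at 360.9 on control array 2. Smooth muscle sums were 7247 and 4436 in TNF-LTBR and 14994, 12444 and 4436 in control. Endothelial sums ranged from 3657 to 4260 in TNF-LTBR and from 3452 to 4791 in control. Fibroblast and pericyte sums were 81368 and 93738 in TNF-LTBR, against 53205, 82755 and 87257 in control. Sums of 4 megakaryocyte and platelet markers were 765.4 and 519.7 in TNF-LTBR, against 637, 668.2 and 483.4 in control. The part of these markers in the values of F3, Plat and Tfpi was not tested, and in bulk RNA fewer cells of a type and less RNA per cell cannot be told apart.

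**Figure D4:**
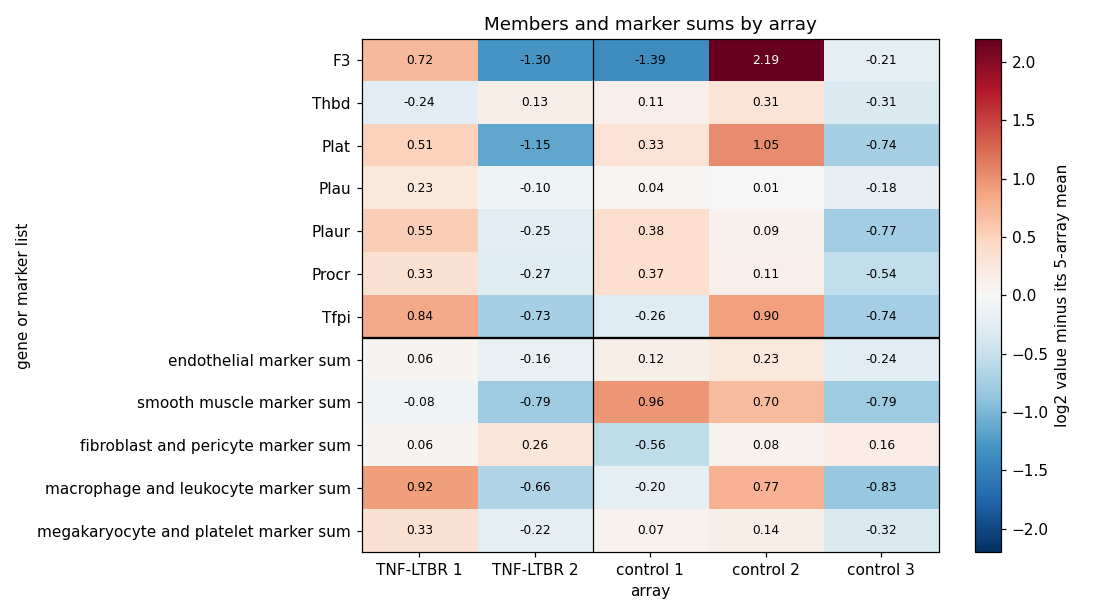
The 7 genes (top) and the summed intensities of 5 marker lists (bottom) on each array, as log2(value + 16) minus the row's mean over the 5 arrays, with the TNF-LTBR arrays left of the controls. All genes but Thbd, and the endothelial, macrophage and megakaryocyte sums, lie above their mean on TNF-LTBR array 1 and control array 2 and below it on TNF-LTBR array 2 and control array 3.

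Set against the control array it most resembled, each TNF-LTBR array gave a ratio of the same direction in both matches for F3, Plat, Plaur, Procr and Plau. This matching was chosen after the data were seen, is not in the labels, and leaves out control array 1, so it is given as values with no test. F3 was at 0.354 times control array 2 on TNF-LTBR array 1, and at 0.437 times control array 3 on TNF-LTBR array 2. Plat was at 0.690 and 0.751 times in the same matches, Plaur at 1.38 and 1.45 times, Procr at 1.17 and 1.21 times, and the dim Plau at 1.20 and 1.08 times. Tfpi was nearly level in both, at 0.960 and 1.01 times, and Thbd went opposite ways, at 0.683 and 1.35 times. Of all genes tested, 32.3% were lower in both matches and 28.4% were higher in both, so agreement of sign is common. Control array 1 goes against the lower F3 of these matches, since its 104.5 units lay below both TNF-LTBR arrays. The gap to the 112 units of TNF-LTBR array 2 is small. Both values lay near the median intensity of their array, 110 for control array 1 and 109.9 for TNF-LTBR array 2.

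Other genes of clotting and fibrinolysis gave the same picture of no call. A list of 42 further genes had 38 with a probe set of a single symbol, of which 17 passed the brightness filter. Of these, 6 were higher and 11 lower in TNF-LTBR, with a median of -0.05. Of all 10916 genes tested, 5386 were higher and 5530 lower. In limma 0 of the 17 passed, against 0% of all genes tested, so this count is not particular to the list. At an unadjusted p under 0.05 the count was also 0, against 1.76% of all genes tested. The listed genes with no such probe set were not analysed here, and those below the filter were fitted only with no filter and are left out of these counts. Both TNF-LTBR arrays exceeded every control for 1 of the 17, Serpina10, the protein Z-dependent inhibitor of factor Xa, against 6.94% of all genes tested, and were below all controls for 2, F2r and F8, against 6.34%. On the log2 scale Serpina10 had a control mean of 7.14 and F8 a TNF-LTBR mean of 7.02, both below the filter's 7.17. Each therefore passed the filter only through the group where it was higher. These counts are not read as a property of the list.

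F2r, the main thrombin receptor of vessel cells, had 11516.8 and 10483.7 units on TNF-LTBR arrays 1 and 2, against 12732.5, 13051.3 and 12121.9 units on control arrays 1 to 3. All controls were higher, by a small margin: the difference was -0.20 (limma, adjusted p 0.999), and it kept its sign in all 14 alternative settings. Because the groups did not overlap, leaving out an array or changing the pseudocount could not turn the sign, so its stability adds no support. F8, the cofactor missing in haemophilia A, had 113.8 and 113.2 units on TNF-LTBR arrays 1 and 2, against 149.7, 160.1 and 141.4 units on control arrays 1 to 3, a difference of -0.36 near the brightness filter. Serpina10 had 202.1 and 131.5 units on TNF-LTBR arrays 1 and 2, against 122.5, 122.9 and 130.6 units on control arrays 1 to 3, so TNF-LTBR array 2 cleared the controls by under 1 unit. The probe sets of F2r and Serpina10 end in _s_at, as that of Procr does.

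The surface plasminogen receptor made of Anxa2 and S100a10 differed by 0.16 and 0.09, and neither gene passed the test. Both signs held in all 14 alternatives. Some of these cannot change a difference, and both genes were among those with the smallest p, so the held signs add no support. Gas6, a vitamin K-dependent ligand related to protein S, differed by -0.58 with overlapping groups and by 0.05 without TNF-LTBR replicate 1. Thbs1, a matrix protein of platelets and vessel cells, differed by -0.03. Vwf, the carrier of factor VIII, was too dim to compare. By class, 1 of 3 tested clotting factors was higher in TNF-LTBR, as were 2 of 4 genes listed as clotting inhibitors, Gas6 being 1 of the 4. Among receptors 0 of 3 were higher, and among fibrinolysis genes 3 of 7. Over all 10916 genes tested, 5386 were higher. None of these counts rests on a gene that passed the test.

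The genes nearest in pattern to each member were found by Euclidean distance between log2 values over the 5 arrays, each gene centred on its mean, among 10915 others. This was done for the 4 tested members whose values spanned at least 1 log2 unit. Nearest to F3 were Fap, which encodes a membrane serine protease of activated fibroblasts (distance 0.85), and Rbp4, the plasma carrier of retinol (0.89), against a median distance of 3.03. Fap had 542.1 and 56.2 units on TNF-LTBR arrays 1 and 2, against 107.3, 988.4 and 151.3 units on control arrays 1 to 3. Like F3, it was highest on control array 2, with TNF-LTBR array 1 second.

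Nearest to Plat were Pla2r1, a receptor of secreted phospholipase A2 (0.17), and Notch3, a Notch receptor of vascular mural cells (0.20), against a median of 1.88. Nearest to Tfpi were Hsd17b7, an enzyme of cholesterol synthesis (0.16), and Abhd11os, a noncoding transcript (0.17), against a median of 1.68. Nearest to Plaur were Prim2, a DNA primase subunit (0.13), and Cyp2u1, a cytochrome P450 (0.15), against a median of 1.15. Distances rest on 5 arrays and are smaller for genes that vary less, so they are not comparable between members.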

How the data were processed

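The authors deposited 1 intensity per probe set and array, on a linear scale. The submitters' processing notes name GCOS version 1.4, while neither the algorithm that summarised probes nor the scaling target is stated there. Groups came from the sample titles. Probe sets with a single symbol were transformed as log2(intensity + 16), the brightest probe set on average stood for each gene, and the 60% of genes with the highest mean (at least 7.17, an intensity of 128) were tested. TNF-LTBR (n = 2) was compared with control (n = 3) in R 4.3.3 with limma 3.58.1 (lmFit, then eBayes with a trend). Tests were two-sided at a Benjamini-Hochberg adjusted p of 0.05, adjusted over every gene tested, with 3 residual degrees of freedom. The smallest p an exact permutation test allows here is 0.1. The fit was tested on simulated data. The number of arrays limits the precision.

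The genes and lists were chosen with earlier results of these data known. Named were all 7 genes, a few further pathway genes whatever their result (Vwf, F2r, Anxa2 and Thbs1 among them), and the 3 further pathway genes with the smallest p in each direction, together with the 2 nearest in pattern to each member that spans 1 log2 unit, and Nfkb2. Marker genes, F5, Kng1, Tfpi2 and Serpinb2 were named after their values were seen. The alternatives were other pseudocounts, filters and normalizations, every probe set on its own, no trend, a replicate block and leaving out each array.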

Additional observations from a re-analysis of the deposited data

How the results depend on the processing

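In all 14 alternatives, 0 genes passed the limma threshold in either direction, which includes the 7 members and the further pathway genes. Genes at an unadjusted p under 0.05 numbered 113 to 481, and members among them 0. Of 96 values recomputed for the members, 80 kept their sign and 16 did not. Pseudocounts of 1 and 64 and both normalizations turned no member's sign. The filters and the fit without a trend cannot change a difference, so the signs kept there, which are among the 80, add no support. With every probe set on its own the brightest ones keep their differences by construction, and a dimmer probe set had the opposite sign for Plat (0.35), Plau (-0.41) and Tfpi (-0.08). Leaving out 1 array gave ranges of -1.50 to 0.53 for F3, -0.28 to 0.090 for Thbd, -1.36 to 0.30 for Plat, -0.057 to 0.27 for Plau, -0.15 to 0.65 for Plaur, -0.25 to 0.35 for Procr and -0.69 to 0.88 for Tfpi. Among further genes they were -0.19 to 0.026 for Vwf, -0.29 to 0.24 for Thbs1 and -1.20 to 0.045 for Gas6. The cause was not tested.

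Same-numbered arrays did not pair: deviations from the group means correlated at 0.13 across genes for number 1 and at -0.80 for number 2. The deviations of the 2 TNF-LTBR arrays mirror each other. The -0.80 therefore only restates the 0.80 of control array 2 with TNF-LTBR array 1. With the replicate number as a block, 0 genes passed, and the difference turned for Plaur (-0.086), Procr (-0.21), Tfpi (-0.26) and Thbs1 (0.12). Control replicate 3 has no partner, so the block gives the same differences as leaving it out. Signal limits Plau, F8, Serpina10 and Vwf, which lay near or below the filter. Under the 40% filter Plau, F3, Vwf, F8 and Serpina10 gave no value.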

Other observations

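Of the 17 further clotting and fibrinolysis genes tested, 7 had TNF-LTBR array 1 and control array 2 above the other 3 arrays, as F3, Plat and Tfpi did. The share over all genes tested was 20.6%. Those 7 further genes were F5, Kng1, Pros1, Tfpi2, F2rl2, Serpinb2 and Serpini1. TNF-LTBR array 1 and control array 2 were below the other 3 arrays for 1 of the 17, against 20.9% of all genes tested. Tfpi2, which encodes a matrix-bound protease inhibitor related to Tfpi, had 586 and 47.2 intensity units on TNF-LTBR arrays 1 and 2, against 72.1, 548.2 and 43.3 units on control arrays 1 to 3. Kng1, which encodes kininogen, the bradykinin precursor and contact factor, had 704.1 and 188.7 units on TNF-LTBR arrays 1 and 2, against 16.5, 1729 and 393.6 units on control arrays 1 to 3. Its lowest and highest arrays were control arrays 1 and 2, as for F3. F5, the cofactor of factor Xa, had 697.9 and 118.5 units on TNF-LTBR arrays 1 and 2, against 245.9, 755 and 196.6 units on control arrays 1 to 3. Serpinb2, the intracellular inhibitor of plasminogen activators, had 1681 and 201.2 units on TNF-LTBR arrays 1 and 2, against 457.6, 525.1 and 148.8 units on control arrays 1 to 3, and TNF-LTBR array 1 stood alone at the top. These genes were picked after their values were seen, so they are described with no test.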
